A study of Mus musculus with 8 samples.

Results

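The cytoplasmic ribosomal protein genes encode the proteins that, with the ribosomal RNAs, build the large (60S) and small (40S) subunits of the ribosome. They were selected by symbol: every symbol of Rpl or Rps followed by a number, together with Rplp0, Rplp1, Rplp2, Rpsa and Fau. Symbols with -ps (pseudogenes), the Rps6k kinases, Rps19bp1 and names ending in l1 were left out. This gave 89 of the 46517 genes in the count table, of which 46 encode 60S proteins, 32 encode 40S proteins, 6 are paralogs with a tissue-restricted or divergent counterpart (Rpl3l, Rpl10l, Rpl39l, Rps4l, Rps27l and Rpl36al) and 5 are near-identical copies that carry a ribosomal protein symbol (Rpl37rt, Rps27rt, Rpl6l, Rps3a2 and Rps3a3). A filter on low counts kept 86 of the 89; Rpl3l, Rpl10l and Rpl39l did not pass it.

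RNA was sequenced from the epididymal (Wolffian) ducts of late-gestation mouse embryos (E18.5). The 4 control libraries (numbered 1, 3, 4 and 6) came from Ptk7 +/flox offspring, with 1 intact and 1 loxP-flanked allele. The 4 libraries labelled PTK7KO (numbered 1, 2, 4 and 5) came from Ptk7 Xst87/flox offspring, in which the other allele is the disrupted Xst87. All offspring carried T-Cre, a Cre recombinase under the promoter of the mesodermal gene T, and the mT/mG reporter, so both groups held Cre and 1 floxed allele. The labels do not say whether the libraries came from separate embryos, so each p-value is set against the spread of these libraries alone, and that spread may be technical. The comparison asks whether expression in the duct differs once Ptk7, a receptor-like protein of planar cell polarity signalling, is removed.

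Total counts were between 24807970 and 29590547 per library. Ptk7 stood at 112.5 to 313 CPM in the controls and at 7.33, 7.59 and 12.5 CPM in the libraries labelled PTK7KO 1, 2 and 4, where CPM gives a gene's counts at a common library size after scaling by normalization factors. The library labelled PTK7KO 5 had 194 CPM of Ptk7, within the control range, so its Ptk7 level goes against its label. Counts of calls and medians over groups of genes, and the genes with the smallest p, are therefore also given without it. All 15 duct epithelium markers and all 10 mesenchyme markers examined were expressed at testable levels (Epcam at 270.1 ± 16.4 CPM and Col3a1 at 5197 ± 904.5 CPM in controls, SD, n = 4), and 8 testis and germ cell markers together reached 12.0 to 20.2 CPM.

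Ribosomal protein mRNAs are among the most abundant in growing tissue, and the proteins are needed in nearly equal amounts, so their genes are usually transcribed and translated as a block. Most of these mRNAs begin with a cytosine and a run of pyrimidines at the 5′ end, the terminal oligopyrimidine (TOP) motif, through which the growth kinase mTORC1 and the RNA-binding protein LARP1 control their translation. Because the mRNAs are abundant and short, reverse transcription has copied them back into mammalian genomes many times. These intronless processed pseudogenes can be almost identical to the parent mRNA, and a short read from such an mRNA can match several places in the genome.

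Among mouse GENCODE M21 transcripts (GRCm38), 774 genes matched at least 70% of the coding sequence of a ribosomal protein gene with at least 90% identity. Of these near-identical copies, 753 are annotated as processed or unprocessed pseudogenes, which were counted together. At least 1 copy was found for 76 of the ribosomal protein genes. The coding stretches below show how little separates a gene from the copy described beside it in the results. They are given 5′ to 3′, with positions counted from the first base of the start codon and with capitals marking the bases that differ.
Rpl26, coding positions 147 to 206: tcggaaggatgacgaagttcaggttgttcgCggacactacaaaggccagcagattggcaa
Gm15772: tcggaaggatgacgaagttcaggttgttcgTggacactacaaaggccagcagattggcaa
Rpl29, coding positions 42 to 101: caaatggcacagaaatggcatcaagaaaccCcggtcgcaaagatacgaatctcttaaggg
Gm8210: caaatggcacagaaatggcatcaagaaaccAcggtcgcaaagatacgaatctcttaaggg
Rpl30, coding positions 66 to 125: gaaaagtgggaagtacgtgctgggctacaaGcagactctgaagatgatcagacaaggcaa
Gm12191: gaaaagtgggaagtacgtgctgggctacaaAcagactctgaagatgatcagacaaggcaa
Rpsa, coding positions 180 to 239: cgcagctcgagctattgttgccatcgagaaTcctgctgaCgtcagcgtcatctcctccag
Rpsa-ps10: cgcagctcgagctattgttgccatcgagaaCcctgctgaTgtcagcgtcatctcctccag
Rplp0, coding positions 42 to 101: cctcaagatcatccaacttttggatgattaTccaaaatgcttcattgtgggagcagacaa
Gm8730: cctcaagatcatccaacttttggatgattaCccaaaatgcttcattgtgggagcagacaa
Rps3a1, coding positions 186 to 245: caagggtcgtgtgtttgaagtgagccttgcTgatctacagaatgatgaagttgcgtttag
Rps3a3: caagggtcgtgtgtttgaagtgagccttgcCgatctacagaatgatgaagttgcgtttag
Over the whole coding sequence, Rpl26 and Gm15772 differed at 2 of 435 positions, Rpl29 and Gm8210 at 3 of 480, and Rpl30 and Gm12191 at 1 of 345. The other 3 pairs differed more: Rpsa and Rpsa-ps10 at 6 of 885 positions, Rps3a1 and Rps3a3 at 8 of 791 aligned, and Rplp0 and Gm8730 at 12 of 951. Rpl3 and its copy Rpl3-ps1 differed at 2 of 1209 positions and shared an uninterrupted stretch of 728 bases. Fau, whose protein is made as a fusion of a ubiquitin-like domain with the 40S protein eS30, did not differ from Gm9843 at any of its 399 coding bases. Among the 157 copies with a mean count of at least 100, 23 had no mismatch in the aligned stretch, and the median longest identical stretch was 194 bases.

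The authors' table assigned a large part of ribosomal protein counts to the copies rather than to the genes. The ribosomal protein genes took 4.20 ± 0.33% of the counts of a control library (SD, n = 4) and copies outside the set took a further 3.29 ± 0.23%. For each of 78 core proteins (the 60S and 40S genes, without paralogs and without copies), counts at the gene were set against the summed counts of gene and copies, called the family here. The median family had 37.0% of its counts at the gene. In 45 of the 78 families less than 50% lay there, in 14 less than 5%, and in 10 at least 90%.

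**Figure D1:**
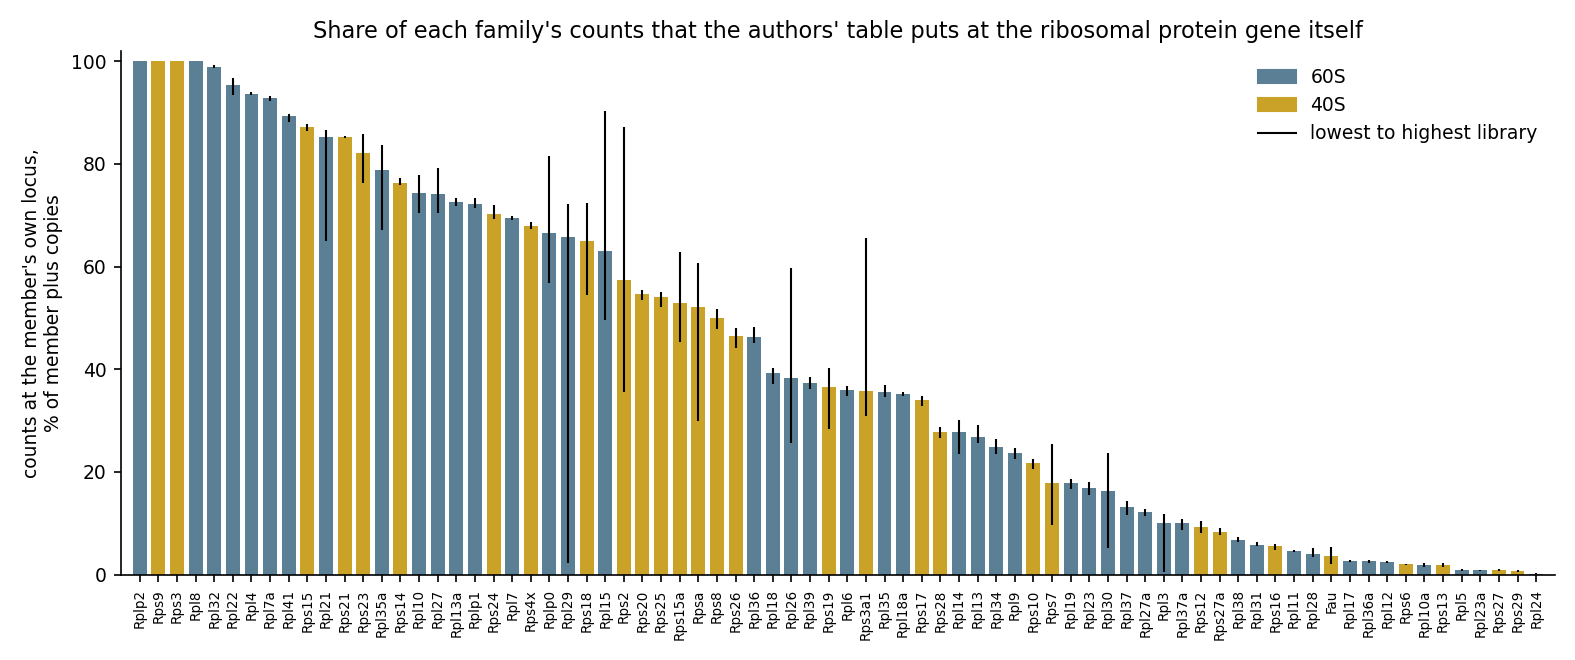
Counts at a ribosomal protein gene's own locus as a percentage of the counts of gene plus near-identical copies, for 76 core proteins. Bars, coloured by subunit, give the percentage with the counts of all 8 libraries added together. Black lines run from the lowest to the highest library. The bars fall from 100% (Rps3, Rplp2, Rps9, Rpl8) to under 1% (Rpl5, Rpl23a, Rps27, Rps29, Rpl24), and most lines are short except at genes such as Rpl29, Rpl26, Rps2 and Rps3a1.

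The 4 highest genes per kilobase of exon held most of their family's counts, and the 4 lowest tested genes held under 1%. Levels per kilobase (CPM per kb of summed exon length) were highest for Rplp1 at 3413 and Rpl8 at 2203, followed by Rps15 at 1823 and Rplp0 at 1739. Rplp1 and Rplp0 belong to the P-stalk, which recruits translation factors to the 60S subunit, Rpl8 lies in the catalytic region of the 60S subunit, and Rps15 sits in the head of the 40S subunit. Rpl8 had no counted copy, and Rps15, Rplp1 and Rplp0 had 87.2%, 72.2% and 66.6% of their family's counts at the gene.

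The lowest levels per kilobase among tested genes were 0.763 for Rpl24, 2.23 for Rpl23a, 2.43 for Rpl5 and 4.87 for Rps27. In these 4 genes the copies held almost all counts: the gene itself had 0.23% of the family's counts for Rpl24, 0.899% for Rpl23a, 0.904% for Rpl5 and 0.879% for Rps27. Rpl5, which carries 5S ribosomal RNA into the ribosome with Rpl11, stood at 9.54 CPM while its family reached 1054 CPM, most of it at the copy Gm15500. Rps27 stood at 5.08 CPM, against 568 CPM at Rps27rt, a copy that carries a ribosomal protein symbol. Whether the mRNA came from the gene or from the copy was not tested. Wilson 95% intervals of these percentages in a single library reached at most 3.55 percentage points to either side, at Rps23, and cover counting error only.

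Family levels spanned a narrower range in fold terms than levels at single loci. The family level of the 78 core proteins ran from 20.02 to 4321 CPM with a median of 818 CPM. At their own locus the genes ran from 0.786 CPM (Rpl24) to 2884 CPM (Rplp0). A level of 100 CPM was reached by 75 families and by 50 of the genes at their own locus, but adding copies can only raise a level. Rps23 and Rpl10 had the lowest family levels, 20.02 and 26.4 CPM, and here most counts lay at the gene (82.1% and 74.3%). Rps23 encodes a 40S protein of the decoding centre, and Rpl10 the 60S protein that joins late in subunit assembly.

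No ribosomal protein gene passed the test between the groups. By edgeR's quasi-likelihood test, 0 of 86 had an adjusted p under 0.05 (smallest adjusted p = 0.512), and the same held for all 16469 genes tested (percent called 0.0%, smallest adjusted p = 0.161). DESeq2 called 0 of the 86 (smallest adjusted p = 0.475) and 1.2% of the genes to which it gave an adjusted p, and limma voom called 0 of the 86. Before adjustment, 2 genes had p under 0.05 and a higher level in the libraries labelled PTK7KO, and 0 had a lower one, against 3.5% and 4.87% of all genes tested. The count of 2 was 0 without control 4, control 6 or the library labelled PTK7KO 1 or 2, was 1 without control 1, and was 3 without the library labelled PTK7KO 5. In no gene of the 86 were the groups free of overlap, against 5.76% of all genes tested.

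The median log2 fold change (PTK7KO minus control) over the 86 genes was 0.01, as against 0.01 over all genes tested, with 53 above and 33 below 0. It was 0.02 for the 46 genes of the 60S subunit and 0.01 for the 32 of the 40S subunit. Single values ran from -0.33 for Rps3a3 to 0.70 for Rps2. With all 8 libraries, the precision was enough to bound most of them at the gene's own locus. The 95% interval lay within 0.5 log2 units of 0 for 69 of the 86 genes (61.5% of all genes tested). It lay within 0.25 for 26 (19.96%). These intervals include the library labelled PTK7KO 5, and they do not bound the counts at copies. Without the library labelled PTK7KO 5 the median was 0.05, with 63 genes above and 23 below 0, and 0 were called (all genes 1, or 0.00599%). Without control 4 or the library labelled PTK7KO 1 the median was -0.04.

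**Figure D2:**
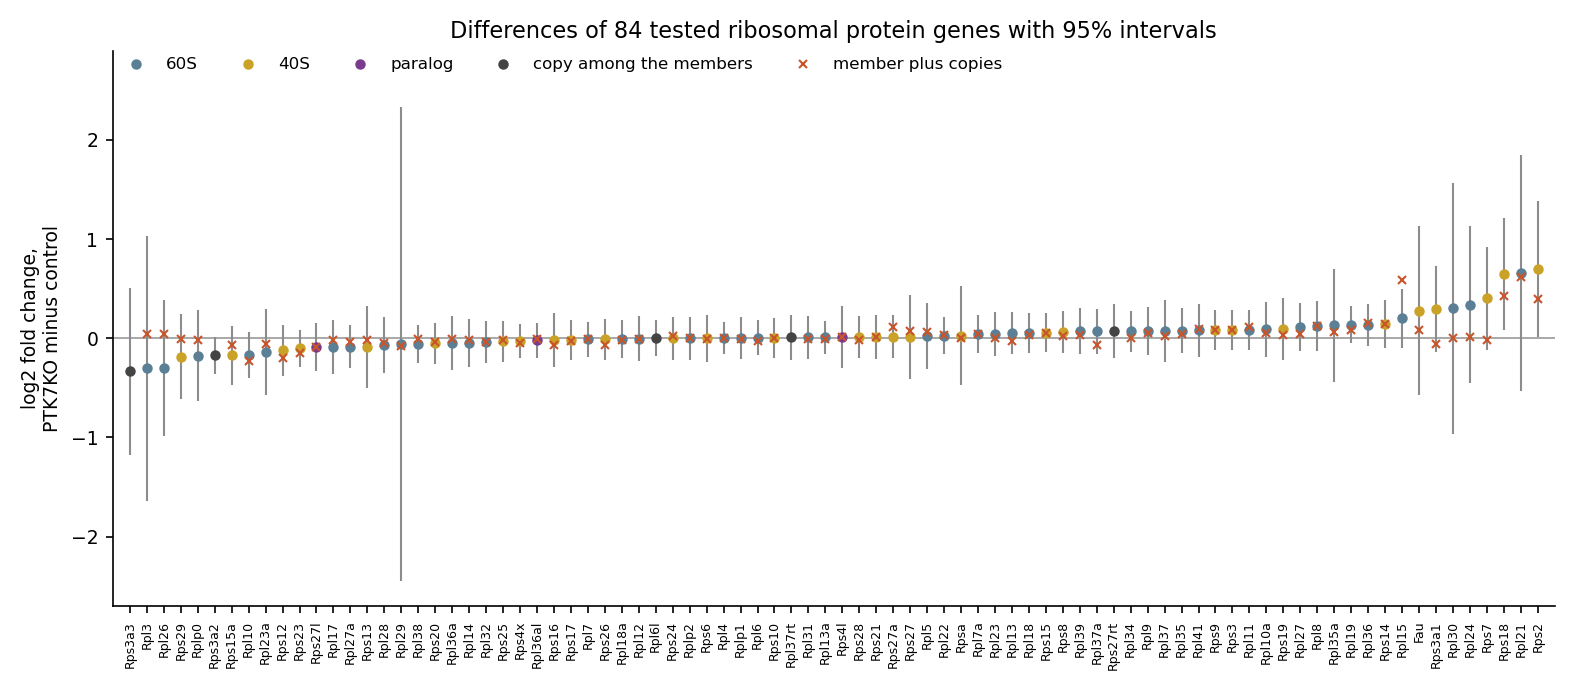
Log2 fold change (PTK7KO minus control, 4 libraries each) of 84 tested ribosomal protein genes in order of size; points are coloured by kind, grey lines are 95% intervals from the edgeR fit, and crosses give the value for gene plus copies. Intervals of 67 genes lie within 0.5 of 0, and the long lines belong to genes whose counts switched between libraries, with Rpl29 the widest (-2.45 to 2.33).

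The proteins examined for their roles showed no difference beyond the spread between libraries. The P-stalk genes Rplp1 and Rplp2 had log2 fold changes of 0.00 (SE 0.10 each). Rplp1 stood at 1688 ± 152 CPM in controls and 1690.1 ± 177 CPM in the libraries labelled PTK7KO (SD, n = 4 each), and Rplp2 at 421.5 ± 41.5 and 421.6 ± 42.8 CPM. Rpl5 and Rpl11, which together with 5S RNA can also bind and block the p53 regulator Mdm2, had log2 fold changes of 0.02 (SE 0.15) and 0.09 (SE 0.09). Rps6, the 40S protein phosphorylated by the S6 kinases, stood at 15.4 ± 1.09 and 15.4 ± 1.81 CPM (0.00, SE 0.11), and 1.99% of its family's counts lay at the gene. Rpl38, a 60S protein required for translation of a subset of Hox mRNAs, stood at 23.8 ± 2.22 and 22.9 ± 1.07 CPM (-0.06, SE 0.09). With all 8 libraries, the 95% interval at these 6 genes excluded a difference of 0.5 log2 units in either direction. It did not at Rplp0 (-0.64 to 0.29), Rpsa (-0.47 to 0.52) and Fau (-0.57 to 1.13), also examined for their roles. With the library labelled PTK7KO 5 left out, the values at the 6 genes were 0.05 for Rplp1, 0.03 for Rplp2, 0.07 for Rpl5, 0.14 for Rpl11, 0.05 for Rps6 and -0.04 for Rpl38. The gene held 0.904% of its family's counts for Rpl5, 4.59% for Rpl11 and 6.76% for Rpl38. The intervals of these genes and of Rps6 therefore bound the locus only. Family log2 fold changes were 0.07 (SE 0.09) for Rpl5, 0.11 (SE 0.09) for Rpl11, -0.004 (SE 0.08) for Rps6 and -0.01 (SE 0.09) for Rpl38.

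Grouped by place or by disease, the ribosomal protein genes likewise gave no call. Of the 18 genes mutated in Diamond-Blackfan anaemia, an inherited failure of red cell production, 14 were above and 4 below 0 (median 0.02). The 9 genes at the peptide exit tunnel had 6 above and 3 below 0 (median 0.01), the 15 genes of the 40S head and mRNA channel had 8 and 7 (median 0.01), and the 4 X-linked genes had 1 and 3 (median -0.04). By either edgeR or DESeq2 0 genes of these lists were called, against 0.0% and 1.2% of all genes. The 40S list held both genes higher at an unadjusted edgeR p under 0.05, against 3.5% of all genes tested. The 13 genes left out by name, such as the S6 kinases, had 8 above and 5 below 0, with 0 called and 0 at that p. In the fit without the library labelled PTK7KO 5, edgeR called 0 genes of these lists, and the medians were 0.08, 0.06, 0.04, 0.01 and 0.01 in the order given.

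The 2 genes at an unadjusted p under 0.05 were Rps18 and Rps2, both proteins of the 40S subunit. Rps18, in the head of the subunit, stood at 264, 412, 229 and 283.5 CPM in controls 1, 3, 4 and 6, and at 585, 536, 501 and 243 CPM in the libraries labelled PTK7KO 1, 2, 4 and 5. The 3 libraries with little Ptk7 lay above all controls and the library labelled PTK7KO 5 lay among the lowest. The gene's part of its family's counts stepped as well. It was 69.8% in control 3 and 72.2%, 71.5% and 72.3% in the libraries labelled PTK7KO 1, 2 and 4. In controls 1, 4 and 6 and the library labelled PTK7KO 5 it was 54.5% to 55.1%. The log2 fold change was 0.65 (SE 0.26, edgeR adjusted p = 0.512) with all 8 libraries and 0.86 (adjusted p = 0.214) without the library labelled PTK7KO 5. With copies added, the family stood at 479, 591, 418 and 519.5 CPM in controls and at 812.5, 750.1, 692 and 445.5 CPM, with a log2 fold change of 0.43 (SE 0.17, adjusted p = 0.505).

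Rps2, at the entry of the mRNA channel, stood at 428, 550.1, 438 and 466 CPM in controls and at 1119, 1096, 439.5 and 405 CPM in the libraries labelled PTK7KO 1, 2, 4 and 5. The difference rested on the libraries labelled PTK7KO 1 and 2, and the other 2 lay within or below the control range. The edgeR log2 fold change of Rps2 was 0.70 (SE 0.31) at an adjusted p = 0.591, and it was 0.91 (adjusted p = 0.35) once the library labelled PTK7KO 5 was left out. Counts at Rps2-ps10 and Rps2-ps13, copies of Rps2, changed by library as well: Rps2-ps13 stood at 679 CPM in control 6 and 624 CPM in the library labelled PTK7KO 4, and at 1.03 to 2.89 CPM in the other 6. For the Rps2 family the log2 fold change was 0.40 (SE 0.21, adjusted p = 0.663). Rpl15, a 60S protein, reached an unadjusted p under 0.05 once the library labelled PTK7KO 5 was left out (log2 fold change 0.31, edgeR adjusted p = 0.478), against 3.74% of all genes higher at that p in the same fit. Its copies Gm10020 and Rpl15-ps2 stood at 67.1 to 83.9 CPM in control 6 and in the libraries labelled PTK7KO 1, 2 and 4, and at 0.835 to 4.74 CPM in the other 4. The Rpl15 family had a log2 fold change of 0.59 (SE 0.32) with all 8 libraries and 0.81 without the library labelled PTK7KO 5, and it varied 2.60-fold between libraries.

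The other genes with the smallest p did not pass the test. On the higher side these were Rpl19 (115 ± 9.53 CPM in controls, 126.6 ± 10.4 in the libraries labelled PTK7KO; adjusted p = 0.697), Rps7 (adjusted p = 0.692) and Rps3a1 (adjusted p = 0.715). On the lower side they were Rps3a2 (325 ± 26.1 and 289 ± 21.1 CPM; adjusted p = 0.63), Rpl10 (20.8 ± 2.69 and 18.46 ± 0.88 CPM; adjusted p = 0.695), Rps15a (adjusted p = 0.753) and Rps23 (adjusted p = 0.762). All these p-values are from edgeR. The log2 fold changes without the library labelled PTK7KO 5 were 0.18 for Rpl19, 0.40 for Rps7, 0.39 for Rps3a1, -0.17 for Rps3a2, -0.14 for Rpl10, -0.09 for Rps15a and -0.08 for Rps23, again with 0 called.

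Counts at single loci stepped up or down from library to library, in both groups, in several genes with an opposite step at a copy. Of the 78 core genes, 23 had a highest library more than 1.5 times the lowest at their own locus. In the family sum 7 did, and 18 of the 23 fell to 1.5 or under once copies were added. Where a gene holds few of its family's counts, the sum follows the copies, so this fall does not show an opposite step. Rpl24, at 11 to 28 counts per library and 0.23% of its family's counts, is an example. Among genes at a mean of at least 100 CPM, 12 of 50 core genes (24.0%) passed that bound at the locus, against 20.6% of all such genes, so a wide spread was about as frequent as in other abundant genes. The 13 core genes above 10 CPM with a spread over 1.8 times are described next, and were chosen after their values were seen.

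Rpl29 had the widest spread of the core genes at their own locus. Rpl29 (chromosome 9, 106429454 to 106431568) stood at 1.38, 185.6, 152 and 162 CPM in controls 1, 3, 4 and 6 and at 168, 2.17, 159.7 and 151 CPM in the libraries labelled PTK7KO 1, 2, 4 and 5. Only control 1 and the library labelled PTK7KO 2 were low, at 35 and 57 counts where the others had 3701 to 5574. In those libraries the copy Gm8210 was at its highest, 49.7 and 52.2 CPM against 24.6 to 28.7 CPM elsewhere, yet the family sum stayed low there, at 59.8 and 63.8 CPM against 209.6 to 263 CPM. Its log2 fold change of -0.06 has a 95% interval from -2.45 to 2.33.

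Rpl26, a 60S protein near the exit tunnel that also binds p53 mRNA, mirrored its copy Gm15772. Rpl26 stood at 242, 523, 225 and 533 CPM in controls and at 285.5, 257, 461 and 230.4 CPM in the libraries labelled PTK7KO, while Gm15772 stood at 677, 343.5, 638 and 326 CPM and at 740.5, 697, 303 and 653 CPM. Control 3, control 6 and the library labelled PTK7KO 4 were high for the gene and low for the copy, and the other 5 libraries were the reverse. The sum ran from 789 to 1048 CPM, and its log2 fold change was 0.04 (SE 0.09), where the gene alone gave -0.30 (SE 0.31).

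Rplp0, the scaffold of the P-stalk and a common reference gene in quantitative PCR, stood at 3595, 2356, 2276 and 4004 CPM in controls and at 2616, 2429, 3648 and 2151 CPM in the libraries labelled PTK7KO. Its copy Gm8730 was low where Rplp0 was high, at 522 and 548.5 CPM in controls 1 and 6 and 535.5 CPM in the library labelled PTK7KO 4, and at 1089 to 1335 CPM in the other 5. The family varied 1.31-fold between its lowest and highest library, and its log2 fold change was -0.02 (SE 0.10).

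Rpsa, a 40S protein that is also known as the laminin receptor, stood at 997, 1099, 974 and 614 CPM in controls and at 1117, 1117, 559.6 and 961 CPM in the libraries labelled PTK7KO. Control 6 and the library labelled PTK7KO 4 were low, and only there did Rpsa-ps10 exceed the gene, at 1266 and 1173 CPM against 489.5 to 575 CPM elsewhere. In Rps3a1, a 40S protein of the mRNA exit side, the library labelled PTK7KO 4 stood apart at 675.5 CPM, with the other 7 between 324 and 384 CPM. Rps3a3 fell to 88.6 CPM in the same library and lay between 403 and 490.0 CPM in the others, and its log2 fold change, the lowest of the set, was -0.33 (SE 0.38).

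**Figure D3:**
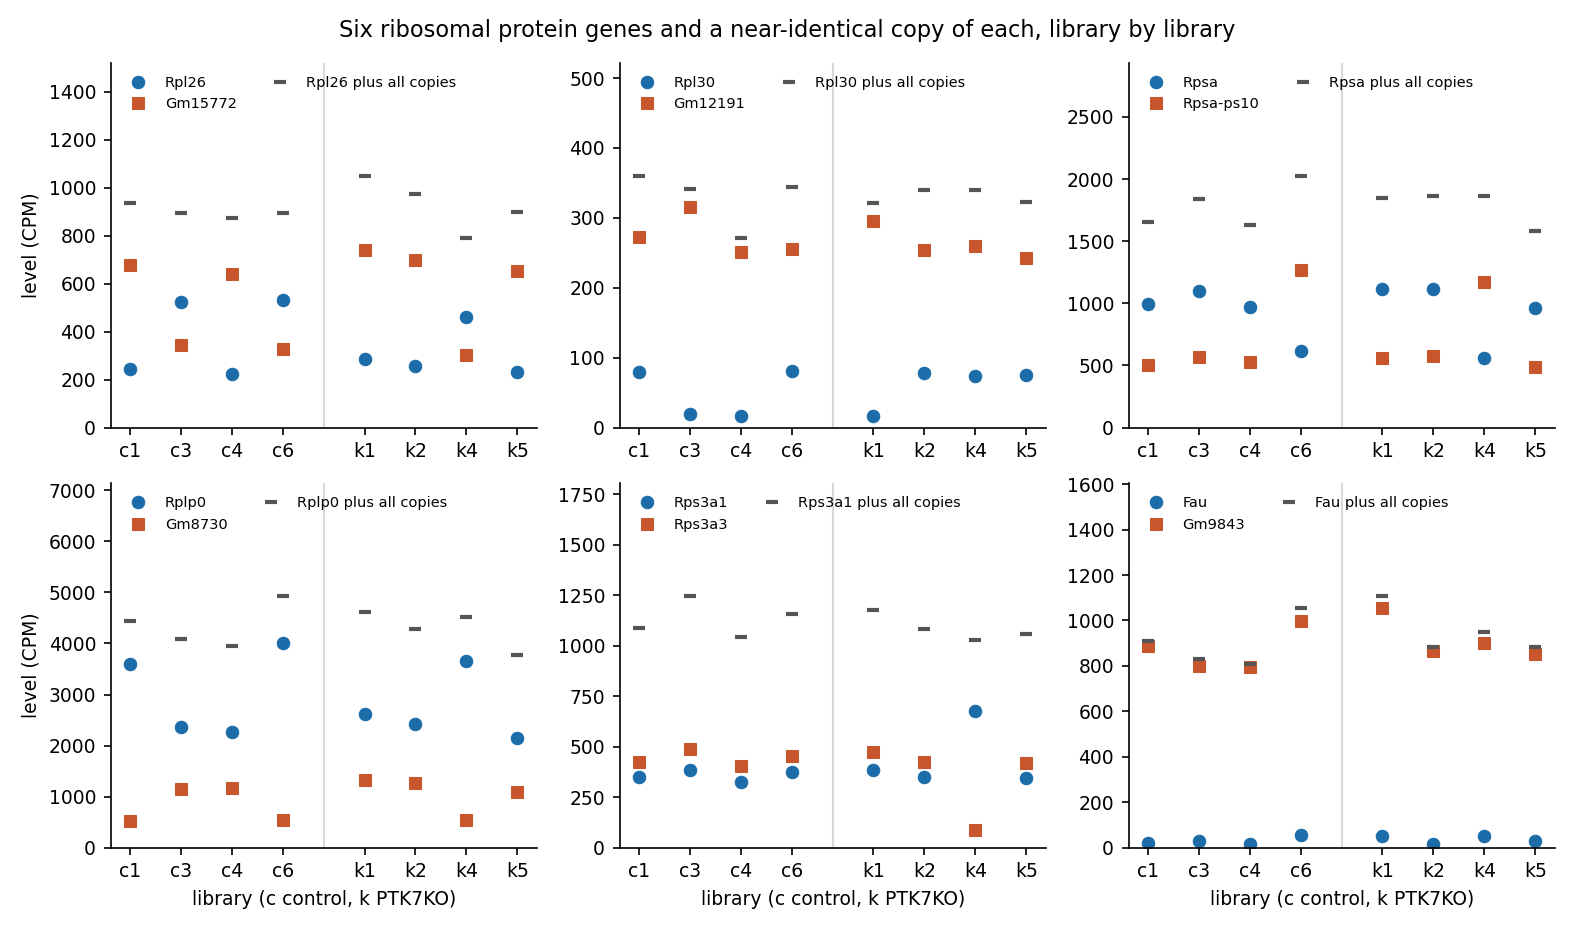
Level in CPM of 6 ribosomal protein genes (blue circles), 1 near-identical copy of each (orange squares) and the sum of gene and all copies (grey dashes) in each library, controls c1, c3, c4 and c6 at left and libraries labelled PTK7KO k1, k2, k4 and k5 at right. Gene and copy step in opposite directions in some libraries for Rpl26, Rpsa, Rplp0 and Rps3a1 while the sums vary less, and Fau lies far below its identical copy Gm9843 throughout.

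Rpl30 and Rpl3 were low in some libraries while their family varied less. Rpl30, a 60S protein, stood at 80.2, 20.04, 16.3 and 81.0 CPM in controls and at 16.5, 78.0, 73.9 and 75.1 CPM in the libraries labelled PTK7KO. It was low in controls 3 and 4 and in the library labelled PTK7KO 1, and its family ran from 272 to 359.7 CPM. Gm12191 lay between 242 and 315 CPM, and was highest in control 3 and the library labelled PTK7KO 1 but not in control 4 (251 CPM). Rpl3, the 60S protein closest to the catalytic centre, lay between 140.4 and 168.9 CPM in 7 libraries and at 7.77 CPM in the library labelled PTK7KO 5, where Rpl3-ps1 was at its highest (1352 CPM against 1107 to 1214). The Rpl3 family varied 1.12-fold, and its log2 fold change was 0.05 (SE 0.07), where the gene alone gave -0.30 (SE 0.61).

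Fau stood at 22.1, 29.0, 17.1 and 55.2 CPM in controls and at 50.7, 18.1, 50.9 and 29.9 CPM in the libraries labelled PTK7KO. Control 6 and the libraries labelled PTK7KO 1 and 4 were high. Gm9843, identical to Fau over the coding sequence, held 795 to 1053 CPM, and Fau itself had 3.67% of the family's counts. For Rps7, a 40S protein that can bind Mdm2, control 3 and control 4 were low (175 and 132 CPM, against 269 to 333 CPM elsewhere), and the family log2 fold change was -0.02 (SE 0.11) where the gene gave 0.40 (SE 0.23).

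In 5 of the 13 genes the sum of gene and copies was still uneven. Rpl21, a 60S protein, stood at 233, 236, 111 and 18.8 CPM in controls and at 260.2, 229.7, 227.1 and 226 CPM in the libraries labelled PTK7KO, so control 6 and control 4 were low. Its family ran from 28.9 to 302 CPM. Rpl35a, another 60S protein, was lowest in the library labelled PTK7KO 4 (44.7 CPM) and in control 6 (54.7 CPM) and ran up to 114 CPM, with a family spread of 2.10 times. The remaining 3 were Rpl29, Rps2 and Rps18, so both genes at an unadjusted p under 0.05 were uneven in the sum as well.

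The 10 core genes with at least 90% of family counts at the gene, among them Rpl4, Rpl7a, Rpl8, Rpl22, Rplp2 and Rps3, were steadier. Their highest library was 1.15 to 1.497 times the lowest, and their log2 fold changes had a median of 0.01, with 0 at an unadjusted edgeR p under 0.05. That median was 0.05 without the library labelled PTK7KO 5, again with 0 at that p. These genes were grouped by where counts lay, which did not use the comparison of the groups. A gene whose counts move to a copy in some libraries tends to fall below such a share, so the small spread is partly built into the grouping. Over all tested genes at a mean of at least 100 CPM, the median of highest over lowest library was 1.28.

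Summing each gene with its copies left the comparison without a call. Of 81 families tested (78 core and 3 paralogs), 0 passed an adjusted p of 0.05 (edgeR, smallest adjusted p = 0.505; all features 0.0%). The median log2 fold change was -0.0007, with 39 above and 42 below 0. At an unadjusted p under 0.05, Rps18 was higher and Rpl10 was lower (family levels 28.5 ± 3.75 and 24.3 ± 1.3 CPM; -0.23, SE 0.10, edgeR adjusted p = 0.576), against 3.61% and 4.93% of all features. Without the library labelled PTK7KO 5, 64 families were above and 17 below 0, with a median of 0.04 and 0 called.

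The share of counts in the whole set varied between libraries within each group. Ribosomal protein genes took 4.19%, 4.35%, 3.74% and 4.52% of counts in controls 1, 3, 4 and 6, and 4.66%, 4.37%, 4.19% and 3.79% in the libraries labelled PTK7KO 1, 2, 4 and 5, each with a Wilson 95% interval of at most 0.00807 percentage points to either side. The groups overlapped throughout, at 4.20 ± 0.33% and 4.25 ± 0.36% (SD, n = 4 each), and the latter was 4.41 ± 0.24% (n = 3) without the library labelled PTK7KO 5. Control 4 and the library labelled PTK7KO 5 were lowest in 60S proteins (1.85% each), in 40S proteins (1.68% and 1.72%), in copies outside the set (3.05% and 3.03%) and in the 10 genes with few copy counts (1.37% and 1.36%). The library labelled PTK7KO 1 was the highest in 40S proteins (2.15%) and in copies (3.65%), and control 6 in 60S proteins (2.30%).

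**Figure D4:**
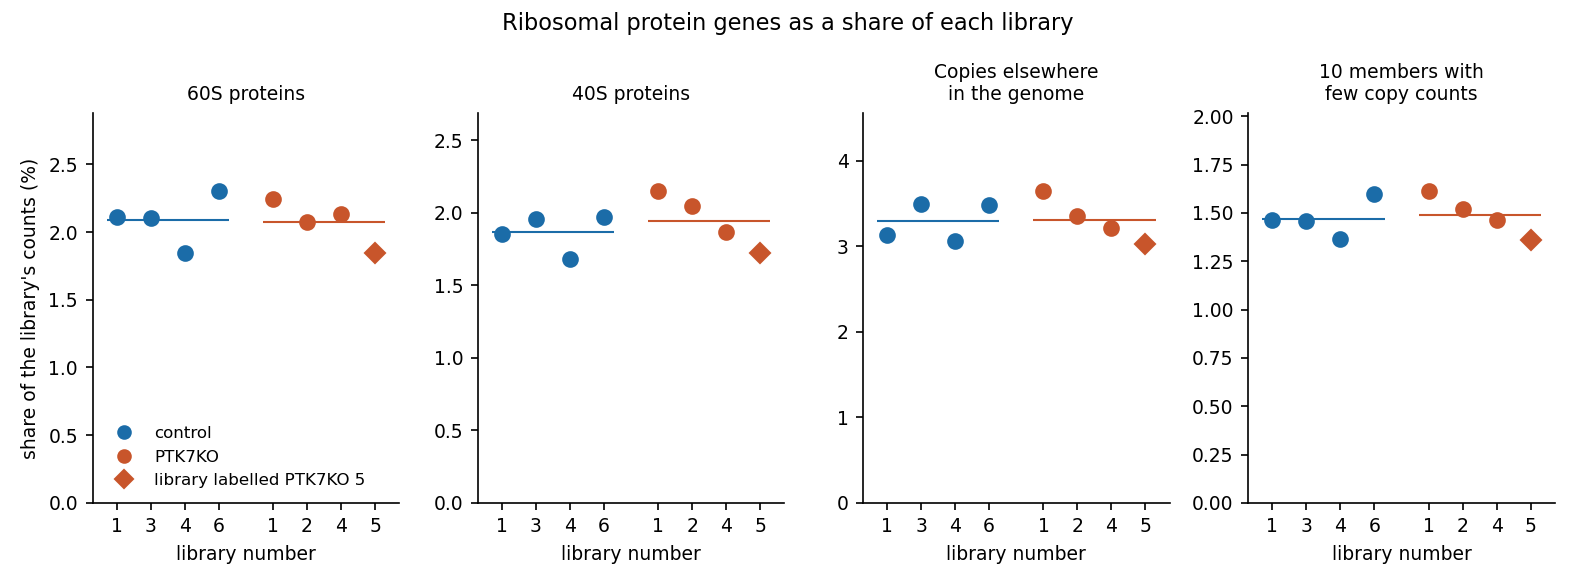
Share of each library's counts, in percent, in 60S protein genes, 40S protein genes, copies outside the set and the 10 genes with at least 90% of family counts at the gene; circles are libraries, the diamond is the library labelled PTK7KO 5, and horizontal lines are group means of 4. Control 4 and the library labelled PTK7KO 5 are the 2 lowest in every panel, and the groups overlap.

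Single families, built from the same counts, most often had the same lowest and the same highest library as the shares. Among the 78 core families, the lowest library was control 4 in 47 and the library labelled PTK7KO 5 in 17, and the highest was the library labelled PTK7KO 1 in 45 and control 3 in 21. The share of mitochondrially encoded genes, a measure that can vary with RNA handling, was 3.47% in control 3 and 1.82% in the library labelled PTK7KO 5, with the other 6 between 2.37% and 2.64%. Its part in the order of the libraries was not tested. In bulk tissue, a difference in cell make-up and a difference in RNA per cell cannot be told apart.

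TOP start sites were compared because these mRNAs respond together to growth signals. RefSeq promoter entries (GRCm38.p6) were matched by symbol for 65 of the 89 genes. The windows below span 20 bases before to 20 bases from the annotated start on, 5′ to 3′ on the gene's strand, with a run of at least 7 C or T that reaches within 5 bases of the start in capitals. The first 5 were chosen to show genes described here with a run, and the last 2 show genes without one.
Rps18, chr17:33955646-33955685, minus strand: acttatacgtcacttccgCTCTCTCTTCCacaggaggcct
Fau, chr19:6057927-6057966, plus strand: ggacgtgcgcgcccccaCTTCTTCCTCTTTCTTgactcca
Rps6, chr4:86857348-86857387, minus strand: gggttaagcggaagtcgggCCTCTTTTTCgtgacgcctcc
Rpl38, chr11:114668560-114668599, plus strand: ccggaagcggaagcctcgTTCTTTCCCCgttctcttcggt
Rpl15, chr14:18270967-18271006, minus strand: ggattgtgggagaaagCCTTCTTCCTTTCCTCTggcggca
Rplp0, chr5:115559447-115559486, plus strand: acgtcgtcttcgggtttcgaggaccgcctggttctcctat
Rps3, chr7:99483690-99483729, minus strand: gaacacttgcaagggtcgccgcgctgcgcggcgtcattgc
Such a run stood at 29 of 77 entries of ribosomal protein genes (37.7%), against 13.5% of all 32851 entries. The search used any string of C and T letters on the transcribed strand, and on the other strand the shares were 5.19% and 14.7%. A match describes the letters only, and an entry's start need not be the start used in the duct. Tested genes with a run had a median log2 fold change of 0.01 (28 genes, 20 above 0), and those with an entry but no run had 0.04 (34 genes, 23 above 0). The medians were 0.06 and 0.08 without the library labelled PTK7KO 5.

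The paralogs with restricted expression were at or near background. Rpl10l, an autosomal stand-in for X-linked Rpl10 in male germ cells, had 0 counts in every library, which allows at most 0.101 to 0.121 CPM per library (3 counts). Rpl3l, a muscle form of Rpl3, stood at 0.0333 to 0.191 CPM and Rpl39l, a germ-cell form of Rpl39, at 0.0395 to 0.307 CPM. The broadly expressed relatives were higher, and their group means differed by less than the SD: Rps27l at 136 ± 14.9 and 128 ± 17.96 CPM, Rpl36al at 133 ± 5.9 and 131 ± 12.3 CPM, and Rps4l at 82.5 ± 18.4 and 83.2 ± 8.09 CPM in controls and in libraries labelled PTK7KO (SD, n = 4 each). The median log2 fold change of these 3 was -0.02, and -0.03 without the library labelled PTK7KO 5.

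Per kilobase, Rps27l (162) and Rpl36al (97.7) exceeded their parents at the locus, Rps27 (4.87) and Rpl36a (8.29). Most counts of both parents lay at copies (0.879% and 2.58% at the gene), so these levels do not compare the 2 proteins' mRNAs. Rps4x (593) exceeded Rps4l (87.9), Rpl39 (220.2) exceeded Rpl39l (0.201) and Rpl3 (44.1) exceeded Rpl3l (0.04). The X-linked parents Rps4x, Rpl36a and Rpl39 had log2 fold changes of -0.03, -0.05 and 0.07 (SE 0.08, 0.12 and 0.10).

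Rack1, a 40S scaffold protein whose symbol falls outside the rule, stood at 3111 ± 246 and 3076 ± 261 CPM. It was 1 of 2 tested ribosomal protein genes outside the rule, with 1 above and 1 below 0 (median log2 fold change 0.20). Without the library labelled PTK7KO 5, 2 were above 0 (median 0.22). In the fits with all 8 libraries 0 were called by edgeR or DESeq2. Of 77 tested mitochondrial ribosomal protein genes (Mrpl and Mrps), which serve a separate ribosome, 0 were called by edgeR or DESeq2 and 0 had an unadjusted edgeR p under 0.05. Over all genes tested, 0.0% and 1.2% were called, and 3.5% were higher and 4.87% lower at that p. The median log2 fold change of the 77 genes was 0.03. Without the library labelled PTK7KO 5 it was 0.05, with 2 higher at that p, against 3.74% of all genes, and 0 called by edgeR.

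Other genes of ribosome production were likewise without a call. Over all genes tested, edgeR called 0.0% and DESeq2 1.2%, and 3.5% were higher and 4.87% lower at an unadjusted edgeR p under 0.05. Of 20 translation factors with TOP mRNAs, 0 were called by edgeR or DESeq2 and 0 had an unadjusted p under 0.05. Their median log2 fold change was -0.03. Eef1a1, which delivers aminoacyl-tRNA, had the highest level (12455 ± 1025 CPM in controls, 12184 ± 1137 in libraries labelled PTK7KO). Pabpc1, the poly(A)-binding protein, had the smallest p (988 ± 74.15 and 879.8 ± 64.2 CPM; -0.17, SE 0.08, edgeR adjusted p = 0.633).

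The same shares of all genes (0.0% and 1.2% called, 3.5% higher and 4.87% lower at an unadjusted edgeR p under 0.05) stand beside the next lists. Of 73 ribosome biogenesis factors 0 were called and 0 had an unadjusted p under 0.05 (median -0.03). Ncl, nucleolin, had the highest level (791 ± 68.2 and 808 ± 52.0 CPM), and Nob1, the endonuclease that finishes 18S RNA, the smallest p (54.0 ± 3.42 and 59.8 ± 3.37 CPM; 0.15, SE 0.07, adjusted p = 0.631). Among 8 tested chaperones of ribosomal proteins 0 were called and 0 had an unadjusted p under 0.05 (median 0.10). Tsr2, which escorts Rps26, had the smallest p (0.12, SE 0.07, adjusted p = 0.682), and Aamp the highest level (148 ± 36.7 and 169.9 ± 5.28 CPM). Among 7 snoRNA host genes 0 were called and 0 had an unadjusted p under 0.05 (median -0.03), and Snhg6 had the smallest p (-0.29, SE 0.22, adjusted p = 0.751). Without the library labelled PTK7KO 5, edgeR called 0 genes of the translation factor, biogenesis, chaperone and snoRNA host lists, and the medians were 0.01, -0.08, 0.12 and 0.03. In that fit 5 biogenesis factors were lower and 1 higher at an unadjusted p under 0.05, against 5.0% and 3.74% of all genes, and 1 chaperone was lower.

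Of 29 genes that control growth and ribosomal protein synthesis, 0 were called by edgeR or DESeq2, while 5 were lower and 0 higher at an unadjusted edgeR p under 0.05, against 4.87% and 3.5% of all genes tested. The 5 were Sesn2 and Deptor, inhibitors of mTORC1 signalling, Myc, a driver of ribosome production, and the RNA-binding proteins Larp4 and Larp4b. Sesn2, with the smallest p, stood at 25.6, 22.5, 23.4 and 19.5 CPM in controls and at 19.7, 19.4, 13.5 and 16.4 CPM in the libraries labelled PTK7KO 1, 2, 4 and 5 (-0.40, SE 0.13, edgeR adjusted p = 0.42). The groups overlapped slightly, at control 6. Akt1s1, an mTORC1 inhibitor with the highest level of this list, stood at 144 ± 34.8 and 168 ± 8.18 CPM. Among 17 p53 pathway genes, which can rise when ribosome assembly fails, 0 were called by either tool, and Sesn2 was the 1 gene lower and 0 were higher at that p. Trp53 was the most abundant (143 ± 11.1 and 132 ± 8.41 CPM). Without the library labelled PTK7KO 5, 4 growth control genes and 1 p53 pathway gene were lower at that p, against 5.0% of all genes. In that fit 0 of either list were called by edgeR.

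Markers of other cell types were counted in the same fit, because the make-up of the tissue can set the level of abundant mRNAs. Duct epithelium markers had 8 of 15 lower and 1 higher at an unadjusted edgeR p under 0.05 (0 called by edgeR, 4 by DESeq2), against 4.87% lower, 3.5% higher and 1.2% called by DESeq2 over all genes, with summed levels of 1197 to 1374 CPM in controls and 1044 to 1438 CPM in libraries labelled PTK7KO. Smooth muscle markers had 5 of 8 lower and 1 higher (0 called by either tool; 3217 to 3837 and 2495 to 3182 CPM). Mesothelium markers had 4 of 7 higher (0 called by edgeR, 3 by DESeq2; 592 to 697 and 709 to 921 CPM). Erythroid markers had 2 of 7 higher (0 by edgeR, 1 by DESeq2), with summed levels of 794 to 2268 and 1362 to 3966 CPM. Neuron and Schwann cell markers had 3 of 6 higher (0 by edgeR, 1 by DESeq2), mesenchyme markers 1 of 10 lower, and endothelial and macrophage markers, 6 each, 0 at that p (0 called by either tool in these 3 lists). Without the library labelled PTK7KO 5, 0 markers of these lists were called by edgeR. In that fit, 8 duct epithelium and 6 smooth muscle markers were lower at that p and 3 mesothelium, 3 neuron and Schwann cell and 1 erythroid marker higher, against 5.0% and 3.74% of all genes. The part of cell make-up in the ribosomal protein levels was not tested.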

How the data were processed

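Gene counts of the 8 libraries were used as the authors deposited them: raw read counts per gene, made with STAR and featureCounts on GRCm38, per the submitters' processing notes. Not given in the sources used here were the strand setting, the annotation and how reads with several equally good matches were counted. Exon lengths came from the same table, per the file headers. Libraries were grouped by their labels. Depth was 24807970 to 29590547 counts per library, and no pair of libraries agreed within sampling noise (28 pairs, lowest chi-square 15.5 for each degree of freedom).

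Counts were tested with edgeR 4.0.16 in R 4.3.3 (filterByExpr, TMM factors, quasi-likelihood F test, Benjamini-Hochberg adjustment over 16469 genes, threshold 0.05); a log2 fold change is PTK7KO minus control, and its SE is the absolute value over the square root of F. The script was tested on simulated data. CPM used TMM-scaled library sizes. DESeq2 1.42.0, limma 3.58.1 (voom with sample quality weights), other scalings and filters, a length offset, a replicate block and leaving out each library were alternatives. Copies were found with blastn 2.17.0 by aligning the 84 coding sequences available to GENCODE M21 transcripts, with at least 70% of the coding sequence, 90% identity and 30% of the copy's transcript. Sums of a gene and its copies were chosen after seeing the data. Genes named were Ptk7, the 4 highest and 4 lowest per kilobase, the 5 with the smallest p in each direction, paralogs with their parents, members named by role, and from other lists the genes with the smallest p and the highest level; others were named after their values were seen, and some genes that the rule or the lists would name are not reported here. The ribosomal protein genes and all lists were chosen with earlier results of these data known.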

Additional observations from a re-analysis of the deposited data

Results flagged for a closer look

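The values of 36 single ribosomal protein genes, and of several sums with copies, were searched for a library far from the other 3 of its group, which chance alone gives in about 1 in 20 groups. This marked 11 values, 8 of them at a single gene, and all 11 lay in libraries labelled PTK7KO. Some of the 36 genes, Rpl29, Rpl21 and Rpl30 among them, were chosen for a wide spread after their values were seen. The rate of 1 in 20 does not apply to such genes. Rpl29 in control 1 was not marked, yet it stood at 1.38 CPM against 152 to 185.6 CPM in the other controls. The place of the 11 values therefore does not compare the groups. Rpl3 was at 7.77 CPM in the library labelled PTK7KO 5, Rpl29 at 2.17 CPM and its sum with copies at 63.8 CPM in PTK7KO 2, and Rpl30 at 16.5 CPM in PTK7KO 1, each below the other 3 libraries. Rps3a1 stood above them at 675.5 CPM and Rps3a3 below them at 88.6 CPM in PTK7KO 4. In PTK7KO 1, Rpl21 (260.2 CPM) and its sum with copies (302 CPM) were the highest of the group, with the other 3 close together. Rpl38 at 24.4 CPM in PTK7KO 1 was high and Rpl24 at 0.422 CPM in PTK7KO 1 was low, but both gaps were small in CPM. The sum of Rpsa and its copies was 1581 CPM in PTK7KO 5, below 1848 to 1865 CPM in the other 3. What set these libraries apart was not tested.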

How the results depend on the processing

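No ribosomal protein gene passed an adjusted p of 0.05 under any alternative but the replicate block. Both groups share the numbers 1 and 4, and the labels do not say what a number marks. Deviations were taken from the mean of the 2 shared-number libraries of each group, so both pairs give the same r = 0.02. This single value does not show a pairing and cannot exclude one. That block, over 4 libraries, called 2 ribosomal protein genes (Rps18 1.14, adjusted p = 0.0156, and Fau 1.39, adjusted p = 0.0265, edgeR) and 7 genes in all, with 18 higher at an unadjusted p under 0.05 and a median of 0.15; the same 4 libraries without it gave 4 genes in all, 7 higher and 0.14. The 2 genes higher at that p became 1 with DESeq2, with a length offset, with summed copies and with summed copies under DESeq2, and 4 with voom; the 0 lower became 1 with a length offset and 1 with summed copies. The 0 genes called in all became 186 with DESeq2, 188 with summed copies under DESeq2, 1 without a filter and 1 with summed copies without PTK7KO 5.

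Leaving out each library gave 0 called ribosomal protein genes throughout, 0 to 3 higher, 0 to 1 lower, 0 to 2 genes called in all (2 without control 1, 1 without PTK7KO 5), a median of -0.04 to 0.05, and mean shares of 4.09% to 4.35% (controls) and 4.12% to 4.41% (PTK7KO). Of 869 single-gene values over 46 genes, 779 kept direction and side of the threshold, 88 (27 genes) changed sign and 2 passed it. The causes were not tested, and no gene with a changed sign was called with all 8 libraries.

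Log2 fold changes of the other sign were as follows. Summed copies gave Rplp1 -0.00353, Rps7 -0.0203, Rps3a1 -0.0606, Rpl3 0.045, Rps6 -0.00408 and Rpl26 0.0432. Summed copies without PTK7KO 5 gave Rplp0 0.0384, Rps3a1 -0.0491, Rps4l -0.0257, Rpl36al 0.0177, Rpl3 0.053, Rpl36a 0.0339, Rpl38 0.0207, Rpl26 0.057, Eef1a1 0.0332 and Ncl -0.0132. The length offset gave Rplp1 -0.0264, Rps27 -0.0378, Rps4l -0.0283, Rplp2 -0.048, Rpsa -0.0339 and Rps6 -0.0491. Voom with sample quality weights gave Rps27l 0.0121, Rpl36al 0.0234, Rps4x 0.0253, Rpl36a 0.0457, Rps6 -1.18e-05, Rpl29 0.18, Eef1a1 0.0262 and Ncl -0.0353. Upper-quartile factors gave Rplp1 -0.00109, Rplp2 -0.00212 and Rps6 -0.00152. The replicate block gave Rplp0 0.11, Rpl24 -0.13, Rpl23a 0.14, Rps27l 0.0546, Rpl36al 0.0516, Rpl3 0.16, Rps4x 0.094, Rpl36a 0.13, Rpsa -0.32, Rpl38 0.0873, Rpl29 2.69, Rpl30 -0.0442, Rpl35a -0.16, Rpl26 0.64, Eef1a1 0.15, Ncl -0.0876 and Snhg6 0.19. Over the fits without 1 library, the ranges were Rplp1 -0.0583 to 0.0503, Rps15 -0.0021 to 0.10, Rpl5 -0.14 to 0.11, Rps27 -0.19 to 0.11, Rps4l -0.0726 to 0.16, Rpl36al -0.0808 to 0.025, Rpl3 -0.49 to 0.088, Rpl39 -0.00718 to 0.12, Rps4x -0.0786 to 0.0173, Rpl36a -0.13 to 0.0296, Rplp2 -0.0729 to 0.0464, Rpsa -0.12 to 0.21, Rps6 -0.0638 to 0.051, Rpl29 -0.47 to 0.35, Rpl35a -0.0378 to 0.34, Eef1a1 -0.0743 to 0.0331 and Ncl -0.0299 to 0.0592. Depth limits Rpl10l, Rpl3l and Rpl39l, at 0 to 8 counts per library.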

Other observations

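Control 3 alone was low in 2 genes outside the ribosomal protein set. Aamp stood at 93.1 CPM there, against 161 to 173 CPM in the other controls, and Akt1s1 at 92.8 CPM, against 154 to 168 CPM. These genes were picked after their values were seen, and no test was run on them.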
